A study of Homo sapiens with 4 samples.

Results

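The genes described here are 43 genes of the senescence-associated secretory phenotype (SASP) that lie outside its best known clusters. They were named as a list, and each was placed in the Hi-C bin of about 200 kb that holds its transcription start on hg19. The 43 genes fell in 41 bins. For 40 of them, in 38 bins on 16 of the 22 autosomes, the bin had enough listed contacts to be used, and these 38 bins were set against all 12862 kept autosomal bins. TIMP1 lies on X and is given apart. The bins of CCL26 and GDF15 were not kept, because the OIS map listed 42.5% and 49.6% of their possible pairs, below the 50% required. No member shares a bin with the 9 bins of the clustered SASP genes used here for comparison (interleukin-1, CXCL, MMP, IGFBP and SERPIN genes). The members are not all apart from each other, however: CCL2 and CCL7 share a bin, CCL8 and CCL13 share the adjoining one, and the bins of CCL3 and CCL5 and of NRG2 and HBEGF also adjoin, so these are not independent regions.

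All cells were IMR90, human diploid lung fibroblasts, carrying ER:HRAS G12V in the vector pLNCX2. This is an oncogenic RAS fused to a receptor domain that 4OHT switches on. 4 maps were compared. Grow cells were growing without 4OHT, and OIS cells were in oncogene-induced senescence after 4OHT. Grow-shA1 and OIS-shA1 cells also carried pMSCV miR shHMGA1, a short hairpin RNA that lowers HMGA1. The labels give 100 nM 4OHT for 6 days for the OIS-shA1 samples. No sample label covers the Grow and OIS maps, so their genotype and treatment are taken from the paper's account of its model. The 2 Grow-shA1 samples were pooled into 1 map and the 2 OIS-shA1 samples into another, while the Grow and OIS maps, made earlier, correspond to none of its samples. A difference between a map with and a map without shA1 is therefore also a difference between data sets, and the 2 cannot be told apart. With 1 map per condition, 1 cell line and 1 hairpin, no test between conditions was possible, and every difference below is a description of these maps without a replicate error.

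The SASP is the set of cytokines, chemokines, growth factors and proteases that senescent cells release, through which they recruit immune cells, remodel the matrix and act on their neighbours. Its inflammatory genes are switched on mainly by NF-kappaB and C/EBP beta, and AP-1 contributes to their enhancers. In OIS fibroblasts heterochromatin gathers into foci in which HMGA1, an architectural protein with AT-hooks, takes part. In Hi-C maps chromatin separates into an A compartment, which is gene-rich and active, and a B compartment, which is largely inactive.

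The bases before the start of 5 members are shown because each holds a match to a motif of a SASP factor and is described further down by its contacts. RefSeq promoter entries on GRCh38.p14 existed for 29 of the 43 genes. The NF-kappaB motif, spelled GGG, any 2 bases, TTTCC and searched on both strands in the 250 bases before each start, matched in 3 of the 29 members, CCL20, IL6 and TNFAIP3, and in 1.73% of all 35116 entries. The AP-1 motif TGANTCA matched in 4 of the 29, CCL7, IL11, PLAUR and TNFAIP6, and in 6.57% of all entries. No member held both. Members were counted as genes and the background as promoter entries, so the 2 shares differ in unit. Other spellings of these motifs and of a C/EBP motif were also tried, and the pair reported was chosen after the matches were seen, so the shares are a description of letters and no evidence of binding. In the lines that follow, capitals mark the match to the NF-kappaB motif in IL6 (chr7:22726950-22727199, plus strand), CCL20 (chr2:227813592-227813841, plus strand) and TNFAIP3 (chr6:137867009-137867258, plus strand), and to TGANTCA in CCL7 (chr17:34269971-34270220, plus strand) and IL11 (chr19:55370464-55370713, minus strand).
IL6: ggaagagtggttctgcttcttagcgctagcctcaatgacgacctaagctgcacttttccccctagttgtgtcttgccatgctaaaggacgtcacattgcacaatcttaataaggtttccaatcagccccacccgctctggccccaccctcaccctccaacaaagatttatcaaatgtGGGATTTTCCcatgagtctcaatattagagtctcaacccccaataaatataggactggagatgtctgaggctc
CCL20: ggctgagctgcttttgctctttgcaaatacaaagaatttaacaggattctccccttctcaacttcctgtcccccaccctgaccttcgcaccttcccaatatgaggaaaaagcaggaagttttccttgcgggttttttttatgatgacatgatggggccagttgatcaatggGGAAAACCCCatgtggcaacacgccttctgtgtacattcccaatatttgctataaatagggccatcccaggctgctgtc
TNFAIP3: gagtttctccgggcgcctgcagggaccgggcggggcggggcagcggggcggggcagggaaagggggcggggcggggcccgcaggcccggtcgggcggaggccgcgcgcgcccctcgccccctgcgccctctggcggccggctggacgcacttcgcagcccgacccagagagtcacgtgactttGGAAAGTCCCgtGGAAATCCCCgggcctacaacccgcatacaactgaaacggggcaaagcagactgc
CCL7: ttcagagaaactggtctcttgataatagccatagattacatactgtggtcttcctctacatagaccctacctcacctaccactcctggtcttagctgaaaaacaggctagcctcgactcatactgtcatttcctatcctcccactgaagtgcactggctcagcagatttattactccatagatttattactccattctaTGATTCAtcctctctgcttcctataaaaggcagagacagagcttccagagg
IL11: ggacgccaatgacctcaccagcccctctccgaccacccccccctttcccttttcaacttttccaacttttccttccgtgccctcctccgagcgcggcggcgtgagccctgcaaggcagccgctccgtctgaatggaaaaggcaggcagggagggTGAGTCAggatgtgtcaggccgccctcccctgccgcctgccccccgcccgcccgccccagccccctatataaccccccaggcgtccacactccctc

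TNFAIP3 held 2 matches close together, starting 67 bases before the gene's start for the first. A relation between these matches and the contacts of the bins was not tested. In CCL20 the match started 79 bases and in IL6 73 bases before the start.

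The members lay mostly in compartment A. In the Grow map 28 of the 38 member bins (73.7%) were in compartment A, against 42.5% of all kept autosomal bins. Each member bin was chosen by a gene start, and A was oriented by gene starts, so a higher share is in part built in. The share for all bins with a gene start is not given here. Of the other gene lists described further down, cell cycle genes had 65% in A and SASP receptors and regulators 82.1%. Clustered SASP and extracellular matrix genes had 100%. The count was 28 in Grow-shA1, 31 in OIS and 30 in OIS-shA1. B in all 4 maps were the bins of IL7, CCL2 and CCL7, CCL3, CCL5, CCL8 and CCL13, CCL20 and BMP2. The member bins held a median of 3 protein-coding gene starts, against 1 over all bins, and by their choice each held at least 1. Their median GC content was 42.8%, against 39.8% over all bins and 41.7% over A bins. Runs of at least 10 A or T bases covered a median of 4.23% of the member bins and 5.28% of all bins.

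From Grow to OIS the compartment call differed for 3 of 38 member bins (7.89%), against 9.62% of all bins, and each of the 3 went from B to A. They hold IL33, an alarmin cytokine of the interleukin-1 family, MMP2, a gelatinase that cleaves collagen IV, and MMP9, the other gelatinase. The compartment score, a loading that is positive in A, was -0.618 for IL33 in Grow, -0.617 in Grow-shA1, 0.184 in OIS and 0.148 in OIS-shA1. For MMP9 it was -0.428, -0.457, 0.154 and 0.254 in the same order. Both genes were thus in A in both senescent maps and in B in both growing maps. MMP2 scored -0.250 in Grow, -0.179 in Grow-shA1, 0.101 in OIS and -0.00891 in OIS-shA1, so its sign in OIS-shA1 rested on a score next to 0.

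The deposited maps hold 1 score per bin pair, which the authors corrected for the distance between the bins, and scores and their differences are given here in score units. A bin's distal score is its mean over pairs more than 2 Mb apart on its chromosome, and its local score the mean over pairs up to 2 Mb. Both used only pairs listed in all 4 maps, which left 81 to 758 distal and 15 to 20 local pairs per member bin. The maps listed 4032189 to 4631800 pairs, and the median share of distal pairs listed for the members was 92.1% in Grow, 85.5% in Grow-shA1, 79.5% in OIS and 78.1% in OIS-shA1. The senescent maps were the sparser ones, and the part of this in the differences between maps was not tested. Percentiles rank a bin's change among the kept bins of its own chromosome, from lowest to highest. The files give no read counts, so the counting error of a score is unknown.

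In the Grow map the members had a median distal score of 0.0569, against 0.162 for all bins and -0.0212 for A bins. In OIS the median was -0.0545, against 0.0984 for all bins and -0.0629 for A bins, and 6 of the 38 lay above the median of their own chromosome, against 13 in Grow. The distal score was lower in OIS than in Grow in 28 of 38 member bins, against 72.8% of all bins, so the count itself was near the background. The median change of the members was -0.111 (range -0.345 to 0.120). Relative to the median of their own chromosomes the members' median change was -0.0394, a value that ranged down in size to -0.00649 when unlisted pairs were counted as 0. 7 bins were in the lowest and 2 in the highest 10% of their chromosome, each of which holds 10% of all bins by construction.

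Local scores of the members did not show the same balance as those of all bins. The local score was lower in OIS in 17 of 38 member bins, against 64.9% of all bins. Their median change was 0.0115 (range -0.596 to 0.397), against -0.122 for all bins and -0.0278 for A bins. Relative to the own chromosome the median was 0.0947, against 0.0300 when only bins of the same compartment were the reference. It was 0.0162 when bins with a protein-coding start were the reference. 5 bins were in the highest and 1 in the lowest 10% of their chromosome.

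**Figure D1:**
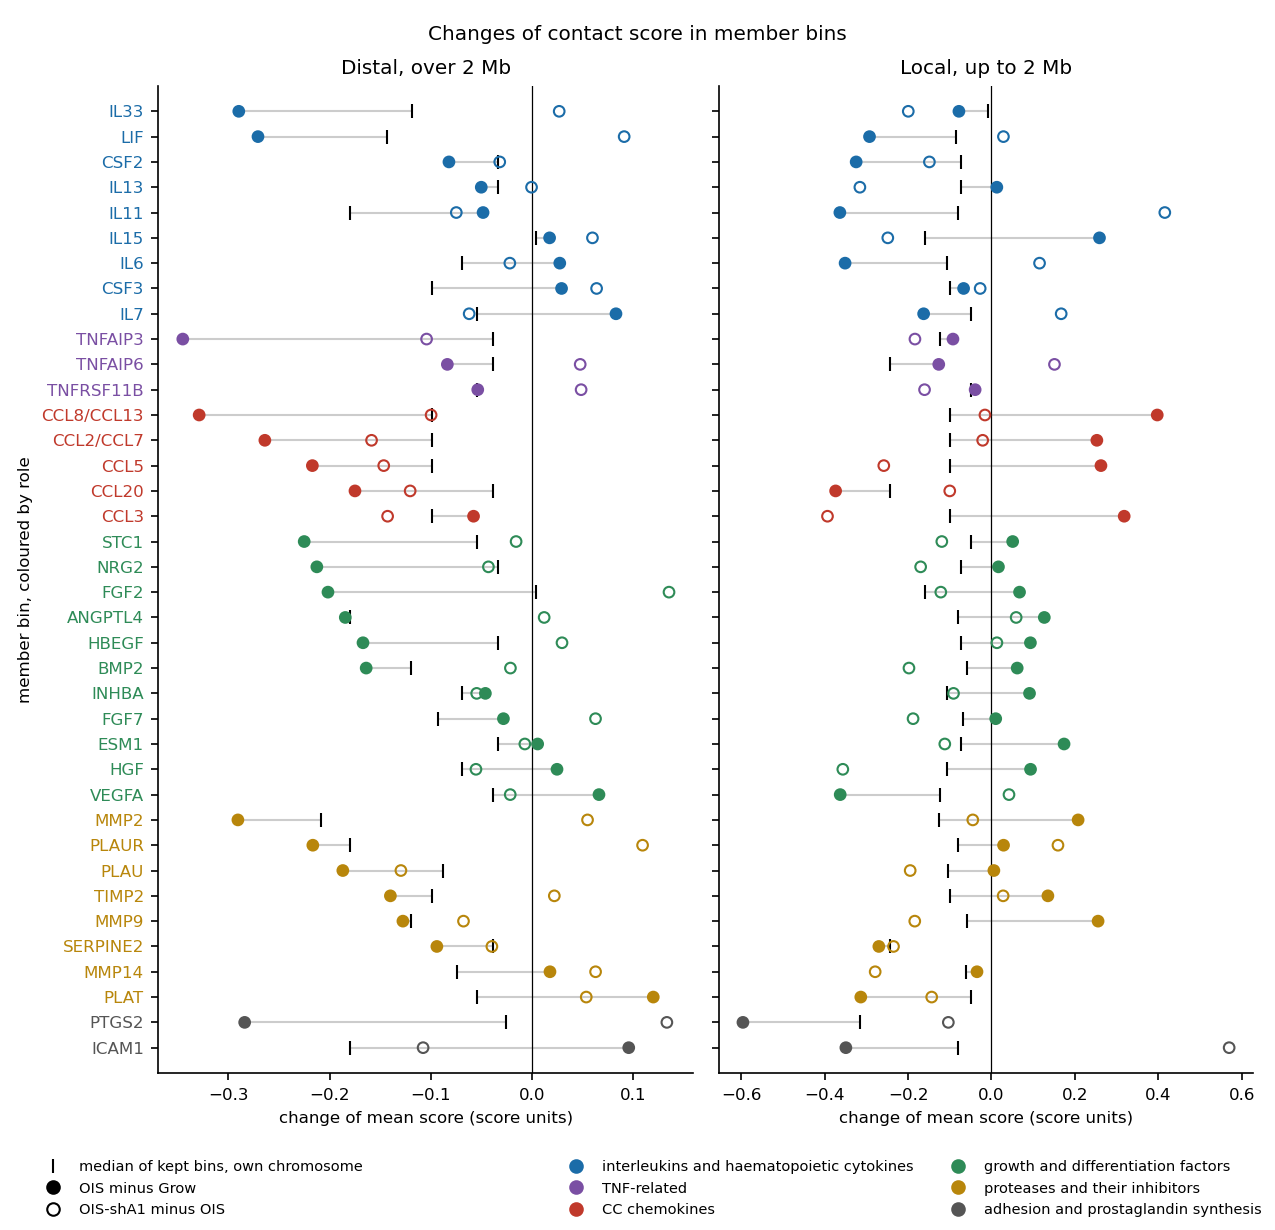
Change of the mean distal score (left) and local score (right) of each of the 38 autosomal member bins, in score units, from 1 map per condition. Filled circles are OIS minus Grow, open circles OIS-shA1 minus OIS (both use the OIS map), black ticks the median OIS minus Grow change of all kept bins on the same chromosome, and colours the role of the gene. The 4 CC chemokine bins of chromosome 17 lie right of 0 in the local panel and left of 0 in the distal panel for OIS minus Grow.

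Distal scores were then taken apart by the compartment of the partner. With B partners, 32 of 38 member bins were lower in OIS than in Grow, against 69.9% of all bins and 75.9% of A bins, with a median change of -0.195 against -0.0932 for all bins and -0.115 for A bins. The count was 20 of 38 when unlisted pairs were counted as 0. With A partners, 25 of 38 were lower, against 60.6% of all bins and 43.5% of A bins. These counts by partner, and those by compartment that follow, were added after the data were seen. Among the 10 member bins in B the median change with B partners was -0.307, against -0.0712 for all B bins, and the local change had a median of 0.230, against -0.225 for all B bins. 9 of the 10 had a local change above the median of the B bins of their own chromosome. 7 of 10 were above 0, where the 75th percentile of all B bins was 0.0211. 4 of these 10 bins are the neighbouring chemokine bins of chromosome 17, and without that chromosome 3 of the other 6 were above 0. Among the 28 members in A the median local change was -0.0145, against -0.0278 for all A bins. Relative to the A bins of their own chromosomes their median was -0.0264, and 16 of the 28 were below.

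**Figure D2:**
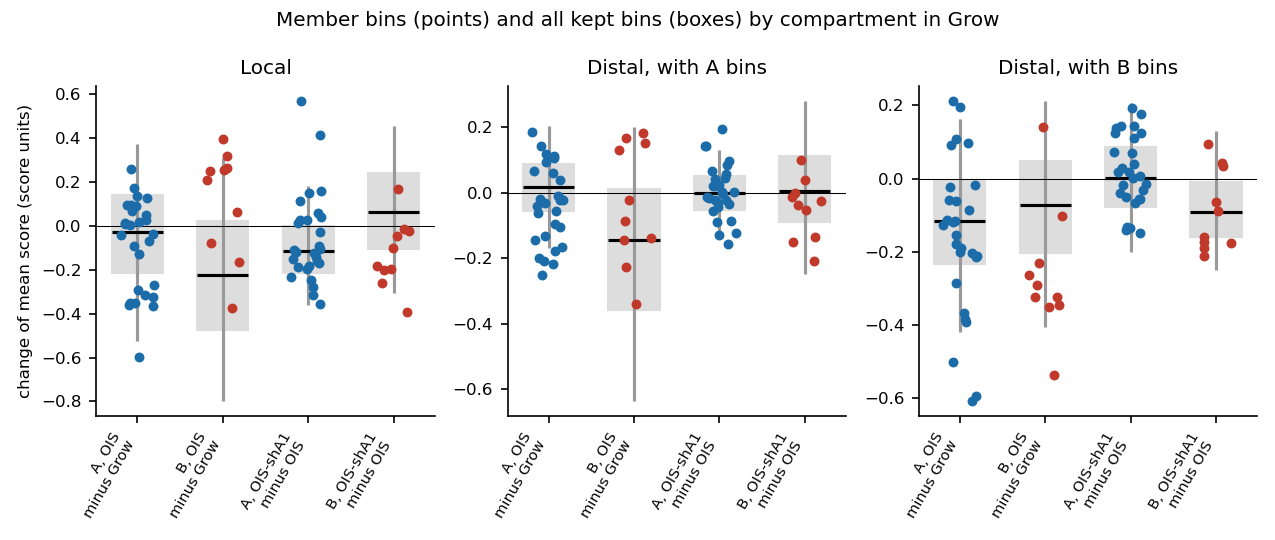
Change of the mean score of member bins (points) by their compartment in Grow, beside all kept autosomal bins (box from the 25th to the 75th percentile, line at the median, whiskers from the 5th to the 95th percentile), in score units. Panels give local pairs, distal pairs with A bins and distal pairs with B bins, and columns the A and B bins for OIS minus Grow, then for OIS-shA1 minus OIS; points are spread sideways only for legibility. Member bins in B had local changes with a median of 0.230 in OIS, while the median of all B bins was -0.225.

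Among the interleukins and haematopoietic cytokines, the local score was lower in OIS in 7 of 9 bins, against 64.9% of all bins, while 5 of 9 had a lower distal score, against 72.8% of all bins. IL6, a main SASP cytokine of the acute phase response, lies in chr7:22601380-22800754 and was in A in all maps. Its distal score was 0.0621 in Grow, -0.0413 in Grow-shA1, 0.0895 in OIS and 0.0675 in OIS-shA1. Its local score was -1.54 in Grow, -1.69 in Grow-shA1, -1.89 in OIS and -1.77 in OIS-shA1. The bin was thus the most locally depleted of the members in every map but not extreme in its change, at the 28.3rd percentile of chromosome 7 for the local and the 86.3rd for the distal change in OIS. Under 2 of 13 settings, among them local pairs up to 1 Mb alone, its local change was above the chromosome median.

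IL11, a cytokine of the IL-6 family that signals through gp130, had the lowest local percentile of the members in OIS. Its local score was -0.902 in Grow, -0.964 in Grow-shA1, -1.27 in OIS and -0.850 in OIS-shA1, so the OIS map stood below the other 3. The change was -0.363 in OIS minus Grow and 0.415 in OIS-shA1 minus OIS, at the 8.17th and 97.4th percentiles of chromosome 19. The OIS map enters these changes with opposite signs. In the same order, the adjoining bin before IL11 had local changes of -0.307 and 0.448, and the bin after it 0.0727 and 0.344. The higher local score with shA1 in OIS was thus not particular to the bin of IL11, which holds 17 protein-coding gene starts. LIF, another gp130 cytokine, was locally lower in both senescent maps, with 0.136 in Grow, 0.214 in Grow-shA1, -0.157 in OIS and -0.128 in OIS-shA1. Relative to the chromosome its local change was -0.207, but 0.164 over pairs up to 1 Mb. Its distal score was also lower in both senescent maps, with 0.232, 0.221, -0.0392 and 0.0518 in the same order.

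IL7, a lymphocyte growth factor whose bin stayed in B, and CSF3, which drives neutrophil production, had the highest distal percentiles of this group. IL7 had distal scores of 0.281 in Grow, 0.183 in Grow-shA1, 0.364 in OIS and 0.302 in OIS-shA1, higher in each senescent map than in its growing counterpart. CSF3 had -0.0808, -0.0431, -0.0517 and 0.0121 in that order, all close to 0. IL33 had a distal score of 0.395 in Grow, 0.370 in Grow-shA1, 0.105 in OIS and 0.132 in OIS-shA1. The lower IL33 scores in both senescent maps came with B partners, where the change was -0.537, whereas with A partners it was 0.153. IL13 and CSF2, both on chromosome 5, and IL15, an activator of natural killer cells, had distal changes of -0.0502, -0.0821 and 0.0173.

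The 3 TNF-related bins were lower in OIS in both classes of contact, as were 72.8% of all bins for distal and 64.9% for local contacts. For local contacts all 3 were above the median change of their own chromosome. TNFAIP3, which encodes the A20 deubiquitinase that restrains NF-kappaB, lies in chr6:137998600-138202660 and had the most extreme distal change of all members. Its distal score was 0.190 in Grow, 0.121 in Grow-shA1, -0.155 in OIS and -0.259 in OIS-shA1. The change of -0.345 was at the 0.182nd percentile of chromosome 6, and that of OIS-shA1 minus Grow-shA1, from maps the first comparison does not use, was -0.380 and at the 0.0608th. Of its 516 distal pairs, 71.7% were lower in OIS. With B partners the change was -0.607 and with A partners -0.200, though the bin itself was in A in every map. The 8 nearest bins, 4 on each side, were also lower in distal score, with changes from -0.307 to -0.210. They differed from TNFAIP3 in local score, where they were higher in OIS by 0.151 to 0.510, while TNFAIP3 had a change of -0.0924. In OIS-shA1 minus Grow-shA1 the neighbours ranged from 0.0855 to 0.361 and TNFAIP3 had -0.187. The lower distal score was thus shared by all 9 bins, while a local change below 0 was found in the bin of the gene alone. That local change was itself ordinary for chromosome 6, at the 54.4th percentile, and it was the neighbours that lay above the chromosome's median of -0.124. Relative to the chromosome the local change of TNFAIP3 was 0.0316 in OIS minus Grow, and ranged from -0.0691 to 0.299 over 13 settings. In OIS-shA1 minus Grow-shA1 it was -0.106 and kept its sign in 11 of 13 settings, but not over pairs up to 1 Mb. TNFAIP6, a hyaluronan-binding anti-inflammatory protein, and TNFRSF11B, the decoy receptor osteoprotegerin, had distal changes of -0.0837 and -0.0536.

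**Figure D3:**
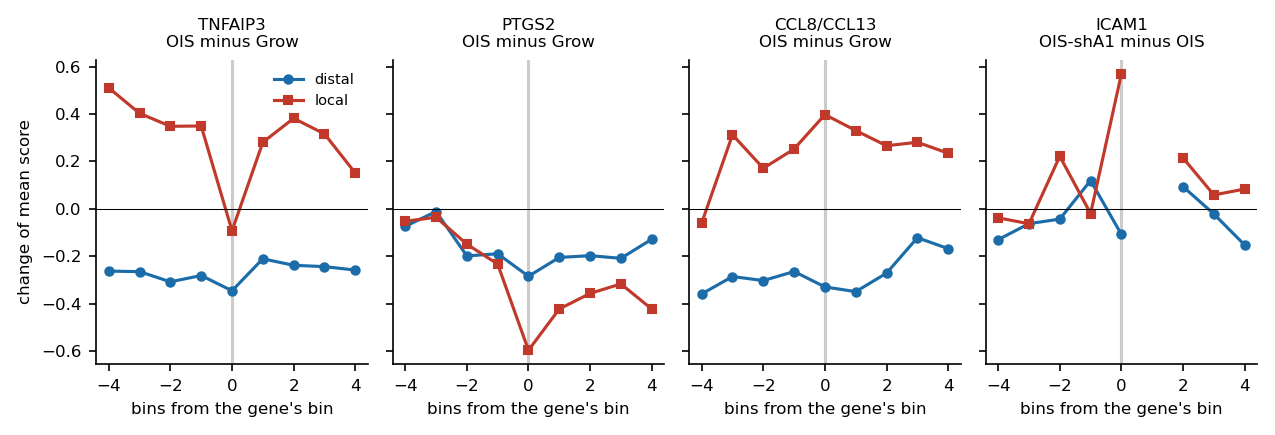
Change of the mean distal (circles) and local (squares) score, in score units, in the bin of a gene (0) and in the 4 bins on each side, each about 200 kb; a gap is a bin that was not kept. At TNFAIP3 the local change is below 0 in the bin of the gene only, at PTGS2 both curves are lowest there, at CCL8/CCL13 the local change is highest there, and at ICAM1 the local change with shA1 in OIS is 0.570 in the bin of the gene.

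The CC chemokines, which attract monocytes, T cells and other leukocytes, stood in 5 bins, 4 of them on chromosome 17. All 5 were lower in distal score in all 4 comparisons, with a median of -0.217 in OIS minus Grow, -0.143 in OIS-shA1 minus OIS, -0.126 in Grow-shA1 minus Grow and -0.232 in OIS-shA1 minus Grow-shA1. Of all bins 72.8%, 67.2%, 86.4% and 65.7% were lower in these comparisons. The CCL3 bin, though lower in OIS, was above the median of its chromosome, at the 63.9th percentile. 4 of the 5 were higher in local score in OIS, namely the bins of chromosome 17, which adjoin in pairs and are not independent. The 7 kept bins around CCL5 and those around CCL3 were locally higher in OIS as well, by 0.136 to 0.436. Of the 8 bins around CCL2, 2 were locally lower in OIS, and of the 8 around CCL8, 1 was. Among these 4 bins only that of CCL8 and CCL13 stood above all bins around it, whose highest change was 0.330. CCL8 and CCL13, in chr17:32599864-32797756, had local scores of 0.855 in Grow, 0.761 in Grow-shA1, 1.25 in OIS and 1.24 in OIS-shA1, the highest member values in both senescent maps. Their distal scores were 0.405, 0.279, 0.0761 and -0.0236. Contacts of this bin were thus higher close by and lower far away in both senescent maps.

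CCL2 and CCL7, in chr17:32402476-32599863, had local scores of 0.598 in Grow, 0.536 in Grow-shA1, 0.851 in OIS and 0.830 in OIS-shA1. Here too the local score in OIS was nearly the same with and without shA1. At CCL3 and CCL5, further along the chromosome, the shA1 maps stood lower. CCL3, in chr17:34399130-34602258, had local scores of -0.416 in Grow, -0.625 in Grow-shA1, -0.0979 in OIS and -0.491 in OIS-shA1, and the change of -0.393 in OIS-shA1 minus OIS was at the 0.394th percentile of the chromosome. CCL5 had -0.0440, -0.238, 0.218 and -0.0398 in the same order. Each of the 4 bins was locally higher in its senescent than in its growing map, with and without shA1. A bin near CCL3, which has near-identical gene copies beside it, was not kept, and the CCL3 bin had 165 distal pairs, against 247 to 269 in the other 3.

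CCL20, which attracts CCR6-bearing lymphocytes and dendritic cells, is the only chemokine of the list on chromosome 2 and differed from the other chemokines. Its local score was 0.943 in Grow, 0.671 in Grow-shA1, 0.570 in OIS and 0.470 in OIS-shA1, highest in Grow. Its distal score was 0.302, 0.239, 0.127 and 0.00706, and the change of -0.175 in OIS was at the 4.20th percentile. The 8 bins around it were locally lower in OIS as well, with changes from -0.823 to -0.260.

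**Figure D4:**
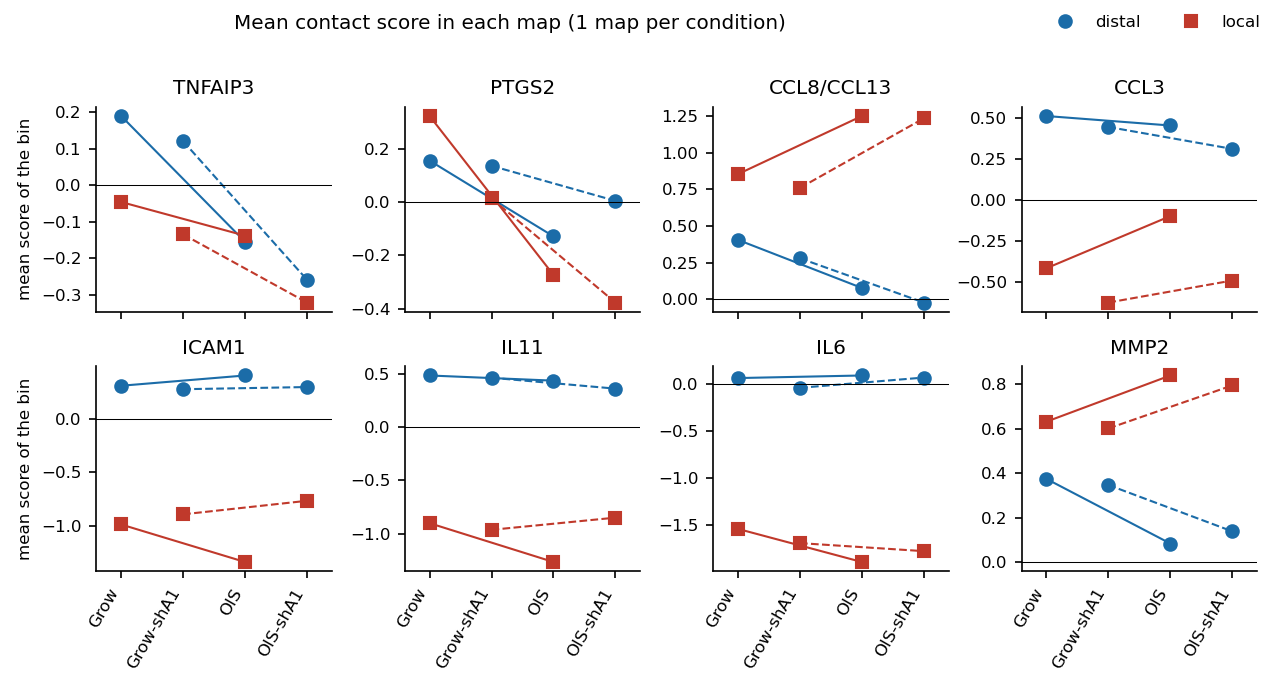
Mean distal (circles) and local (squares) score of 8 member bins in each of the 4 maps, in score units, with 1 map per condition and a separate axis for each gene. Solid lines join Grow to OIS and dashed lines Grow-shA1 to OIS-shA1. TNFAIP3 and CCL8/CCL13 have near parallel lines, while at ICAM1 and IL11 the local line slopes down without and up with shA1.

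Growth and differentiation factors were locally higher in OIS in 10 of 11 bins, a count chosen after the values were seen. By contrast, 64.9% of all bins and 2965 of 5463 A bins were lower. Their local changes were modest, with a median of 0.0672 and a highest value of 0.174 at ESM1, the endothelial proteoglycan endocan. The exception was VEGFA, the main angiogenic factor, with local scores of -0.906 in Grow, -0.904 in Grow-shA1, -1.27 in OIS and -1.23 in OIS-shA1. In the maps with shA1, 7 of 11 were locally lower in OIS-shA1 than in Grow-shA1, near the 65.7% of all bins. In distal score 8 of 11 were lower in OIS, against 72.8% of all bins, so the count was that of the background. The lowest percentiles were those of NRG2, a neuregulin ligand of ERBB receptors (0.0408 in Grow, 0.0129 in Grow-shA1, -0.172 in OIS, -0.215 in OIS-shA1), STC1, a secreted glycoprotein (change -0.225), and FGF2, a fibroblast mitogen. FGF2 had distal scores of -0.194 in Grow, -0.212 in Grow-shA1, -0.396 in OIS and -0.260 in OIS-shA1, so the OIS map stood below the other 3. HGF, the hepatocyte growth factor, had the local change with shA1 in OIS that was lowest in this group, -0.356. The other members, INHBA (activin A), BMP2, FGF7, ANGPTL4 and HBEGF, had distal changes in OIS between -0.184 and -0.0283 and local changes between 0.0101 and 0.127.

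Of the proteases and their inhibitors, 6 of 8 autosomal bins were lower in distal score in OIS, near the 72.8% of all bins, and 3 of 8 lower in local score, against 64.9% of all bins. PLAT, the tissue-type plasminogen activator, was the main exception. Its distal score was -0.240 in Grow, -0.229 in Grow-shA1, -0.120 in OIS and -0.0668 in OIS-shA1, higher in both senescent maps, and its local score was -1.28, -1.42, -1.60 and -1.74, lower in both. Relative to the chromosome its local change was -0.264, but 0.199 over pairs up to 1 Mb. MMP9, in chr20:44596299-44793658, had local scores of -0.394 in Grow, -0.497 in Grow-shA1, -0.138 in OIS and -0.322 in OIS-shA1. MMP2, in chr16:55403291-55598672, had local scores of 0.631, 0.601, 0.839 and 0.794 and distal scores of 0.374, 0.346, 0.0831 and 0.138. Both gelatinase bins were therefore locally higher in each senescent map. With A partners the distal change in OIS was 0.181 at MMP9 but -0.228 at MMP2, and with B partners it was -0.349 and -0.323. PLAU, the urokinase, and its receptor PLAUR had distal changes of -0.187 and -0.217 in OIS, followed by -0.130 and 0.109 in OIS-shA1 minus OIS. SERPINE2, TIMP2 and MMP14, a membrane-bound metalloproteinase, had distal changes in OIS of -0.0940, -0.140 and 0.0177. TIMP1, a metalloproteinase inhibitor on X, had local scores of -0.440 in Grow, -0.403 in Grow-shA1, -0.0648 in OIS and -0.350 in OIS-shA1, so that OIS alone stood high, at the 98.3rd percentile of the bins of X for its change.

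ICAM1 and PTGS2, an adhesion receptor for leukocytes and the inducible cyclooxygenase COX-2, were at opposite ends for distal contacts. ICAM1, in chr19:10203904-10399833, had distal scores of 0.307 in Grow, 0.275 in Grow-shA1, 0.403 in OIS and 0.295 in OIS-shA1, and its change of 0.0955 in OIS was at the 97.8th percentile. This bin had the fewest distal pairs of the members, 81. PTGS2, in chr1:186600415-186805083, had 0.155, 0.136, -0.129 and 0.00458, with the change in OIS at the 3.16th percentile. In OIS-shA1 minus OIS PTGS2 differed by 0.133, in the highest 10% of its chromosome. Both comparisons use the OIS map, so a low value there enters them with opposite signs. The bins around PTGS2 were lower in distal score in OIS as well, with changes from -0.208 to -0.0110, and PTGS2 was the lowest of these 9 bins in both distal and local change.

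Locally, ICAM1 scored -0.984 in Grow, -0.889 in Grow-shA1, -1.33 in OIS and -0.764 in OIS-shA1. The OIS map stood low and the OIS-shA1 map high, and the difference between those maps, 0.570, was at the 99.8th percentile of chromosome 19 and above the -0.0626 to 0.222 of the 7 kept bins around it. PTGS2 scored 0.323 in Grow, 0.0137 in Grow-shA1, -0.273 in OIS and -0.377 in OIS-shA1, lower in both senescent maps and in both shA1 maps.

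With shA1 in OIS, the distal score was lower in 22 of 38 member bins, against 67.2% of all bins. The local score was lower in 27 of 38, against 55.3% of all bins and 4115 of 5463 A bins, so the count was not above that of A bins. The 28 members in A had a median local difference of -0.116, the same as all A bins, whereas the 10 in B had -0.142 against 0.0616 for all B bins. In OIS minus Grow, which the OIS map enters with the opposite sign, the same 10 bins had a median of 0.230. Of these 10 bins, 4 are the neighbouring chemokine bins of chromosome 17. With B partners 19 of 38 were lower, against 65.3% of all bins and 49.3% of A bins. In growing cells, 33 of 38 member bins were distally lower with shA1, against 86.4% of all bins, and 29 of 38 locally lower, against 72.9% of all bins. The distal counts in growing cells were thus near the background. The members at the outer ends of their chromosomes for the distal change in OIS-shA1 minus OIS were 3 bins in the lowest 10%, all of them CC chemokine bins of chromosome 17, and 4 in the highest 10%, PTGS2, FGF2, TNFAIP6 and FGF7.

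The RAS change with shA1, OIS-shA1 minus Grow-shA1, uses none of the maps of OIS minus Grow. In it 26 of 38 member bins were distally lower, against 65.7% of all bins, and 21 of 38 locally lower, also against 65.7% of all bins. Across the 38 bins the distal changes of both comparisons had a Pearson correlation of 0.891 and a Spearman correlation of 0.914, and across all 12862 bins 0.815 and 0.798. For local changes the values were 0.721 and 0.739 in the members, and the Pearson correlation over all bins was 0.712. These are descriptions across bins that share maps, chromosomes and in part neighbours, and carry no p. 33 of 38 members (86.8%) were on the same side of their chromosome's median in both for distal contacts, against 80.6% of all bins, and 25 of 38 (65.8%) for local contacts, against 75% of all bins.

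**Figure D5:**
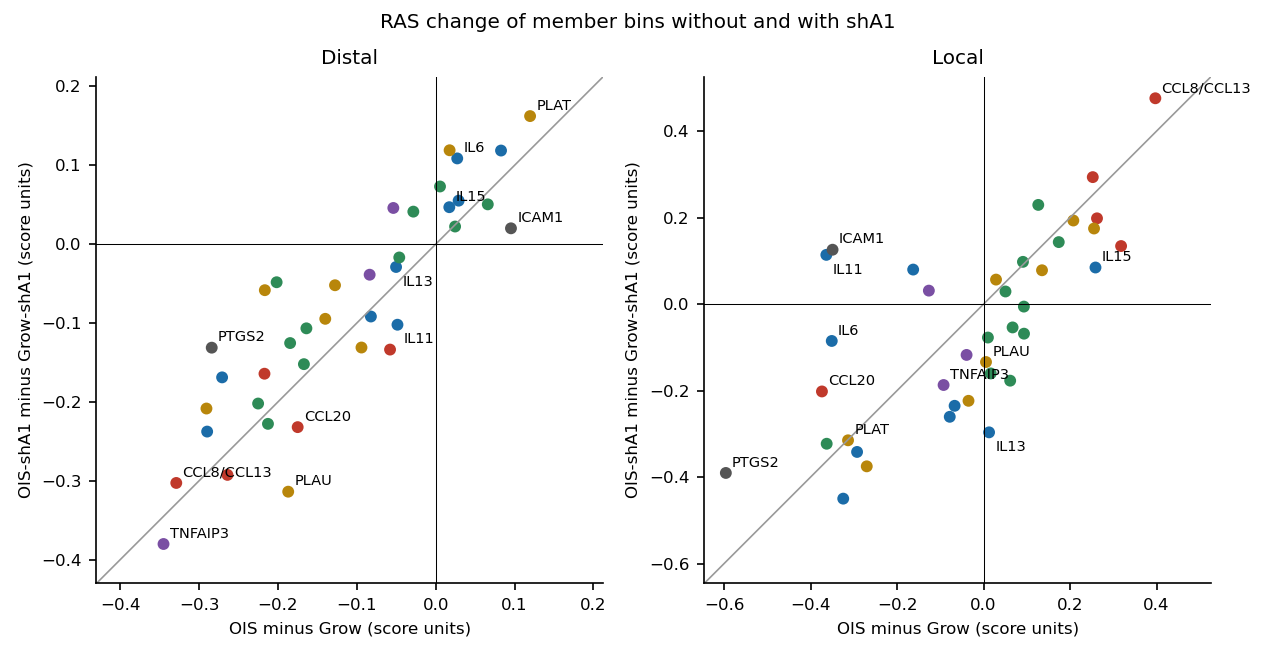
Change between growing and senescent cells of each of the 38 member bins without shA1 (horizontal axis) and with shA1 (vertical axis) for distal and local scores, in score units, coloured by role as in the plot of changes by gene; the grey line marks equal changes. TNFAIP3 and CCL8/CCL13 lie near the line in the distal panel, and ICAM1 and IL11 lie above it in the local panel, with values below 0 without and above 0 with shA1.

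Members on the same chromosome formed 37 pairs over 2 Mb apart, of which 29 were listed in all 4 maps. The score of these 29 pairs was lower in OIS than in Grow in 10, with a median change of 0.156, and lower in OIS-shA1 than in OIS in 22, with a median of -0.258. Over all 2827777 such pairs of kept bins 53% and 51.8% were lower, with medians of -0.0450 and -0.0246. Both comparisons use the OIS map. The largest positive differences in OIS were in CSF3 with TIMP2 (2.11), IL13 with HBEGF (0.933) and IL13 with NRG2 (0.809), and the largest negative ones in IL6 with HGF (-1.13), STC1 with IL7 (-0.952) and ANGPTL4 with IL11 (-0.911). A pair's score is a single matrix entry of unknown counting error. When each entry was averaged with the entries around it, 3 by 3 bins, the sign of OIS minus Grow turned in 12 of the 29 pairs and the median was 0.0643. ICAM1 with IL11, the next in size among the negative pairs, had -0.800 as a single entry and 0.15 as a block. In OIS minus Grow the 6 pairs above kept their sign, at 0.451, 0.249 and 0.325 for the first 3 and -0.167, -0.247 and -0.459 for the others. In OIS-shA1 minus OIS the sign turned in some pairs as well. IL13 with HBEGF had -0.443 as a single entry, but blocks of 0.457 in OIS and 0.523 in OIS-shA1. IL13 with NRG2 had -0.281, but blocks of 0.149 and 0.222. CSF3 with TIMP2 stayed lower in OIS-shA1, with blocks of 0.264 and 0.0339. The count of 22 is one of single entries and was not recounted over blocks.

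Other gene lists served as comparison, none of which shares a bin with the members. The receptors and regulators of the SASP, such as cytokine receptors and NF-kappaB subunits, occupied 28 bins, 23 of them in A, with a median distal change in OIS minus Grow of -0.0297 and 20 of 28 bins lower. The clustered SASP genes occupied 9 bins, all in A, with a median of -0.0991 and 7 of 9 lower. Extracellular matrix genes, in 12 bins that were all in A, had a median of 0.0109 with 4 of 12 lower, and cell cycle genes, in 20 bins with 13 in A, a median of -0.0596 with 15 of 20 lower. The members, at -0.111, had the lowest median of these lists for distal contacts, and for local contacts in OIS their median of 0.0115 stood between -0.147 for the clustered SASP genes and 0.0569 for the cell cycle genes. Over all bins 72.8% were lower in distal score. These differences between lists were not tested.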

How the data were processed

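Hi-C was performed in IMR90 cells with in-nucleus ligation. The authors processed the reads with HiC-Pro on hg19, balanced the matrices (ICE) and removed the effect of distance. The deposited unit is a score of either sign for bins of about 200 kb, whose log base is not given in the sources used here. The authors pooled the 2 samples of each shA1 condition, so samples could not be compared with each other. The coordinate list matched GRCh37 in length for every chromosome, and bin edges lay on HindIII sites.

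Genes were placed by GENCODE starts lifted to GRCh37. A bin was kept if at least 50% of its possible pairs were listed in each of the 4 maps. The denominator, bins with any value, was chosen after a first run over all bins of a chromosome had kept 13567 bins and left out PLAU as well; the rule used kept 12862 autosomal bins and 742 on X. Changes are means over pairs listed in all 4 maps; excess is a bin's change minus its chromosome's median. Compartments are the sign of the first principal component of each chromosome's correlation matrix, oriented by gene starts. No test was possible. Code was tested on simulated shifts (Python 3.11.15, numpy 2.4.6, pandas 2.3.3). The members, gene lists and comparisons were chosen with earlier results of these data known. Genes with values in every map are the 4 bins lowest and the 4 highest in percentile for the distal and for the local change in OIS minus Grow, bins whose compartment differed, and IL6; the others were named after their values were seen. Counting error is unknown because no read counts were used.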

Additional observations from a re-analysis of the deposited data

Results flagged for a closer look

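Among the bins whose values are given in every map, 4 had local RAS changes of opposite sign without and with shA1. With 1 map per condition every sample of one condition necessarily moved one way, and the difference was not tested. At IL11 the local change was -0.363 without and 0.114 with shA1, a difference of 0.477. At ICAM1 it was -0.349 and 0.126, a difference of 0.475. At IL7 it was -0.163 and 0.0799, a difference of 0.243. At NRG2 it was 0.0167 and -0.160, a difference of -0.177. IL11 and ICAM1 both lie on chromosome 19. Both were named because their local change without shA1 was among the lowest in percentile of the members. The part of this choice in the opposite signs was not tested. The share of all bins with opposite signs is not given here, so the count of 4 has no background to be set against.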

How the results depend on the processing

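No paired analysis was possible because the 2 samples of each shA1 condition were pooled into 1 map, which also prevented leaving out a replicate. Each result was recomputed under up to 16 settings, of which 2, leaving out chromosome 17 and keeping bins by their share of all bins of the chromosome, were chosen after seeing the data. The results on B partners and on members in B were added at the same point. Of all values, 159 stayed within 1.5 times the reported one, 43 moved further without a change of sign and 8 changed sign. The count of members in A was 28 with a component per arm and with limited values.
The medians relative to the own chromosome were as follows. Distal OIS minus Grow (-0.0394) was -0.0152 after division by the SD at each distance, -0.0117 with all pairs of each map, -0.00649 with unlisted pairs as 0, -0.0229 with every bin and -0.0216 over 2 to 50 Mb. Distal OIS-shA1 minus OIS (0.0208) was 0.0120, 0.0113, 0.0114 and 0.0119 under the first 4 of these, 0.00122 against the same compartment, 0.00818 against bins with a protein-coding start and 0.0138 per gene. Distal Grow-shA1 minus Grow (0.0156) was 0.0245 with unlisted pairs as 0, 0.00557 against bins with a start, 0.00478 over 3 bins, 0.0277 without chromosome 17 and, with the other sign, -0.00454 against the same compartment. Distal OIS-shA1 minus Grow-shA1 (-0.0134) was -0.00745 with limited values, -0.0361 after division by the SD, -0.00399 with all pairs, -0.0369 over 3 bins, -0.00793 as a median over pairs, -0.00831 with bins kept by share of all bins and -0.00819 over 5 Mb, and turned to 0.00738 with unlisted pairs as 0, 0.00547 without chromosome 17 and 0.00718 over 2 to 50 Mb. The distal interaction (0.0131) was 0.00275 with all pairs, 0.00523 against the same compartment and 0.0260 over 2 to 50 Mb, and turned to -0.00931 after division by the SD, -0.00260 with unlisted pairs as 0 and -0.00811 as a median over pairs.
Local OIS minus Grow (0.0947) was 0.0300 against the same compartment and 0.0162 against bins with a start. Local OIS-shA1 minus OIS (-0.0881) was -0.0239, -0.0380 and, up to 1 Mb, -0.0544 under these. Local Grow-shA1 minus Grow (-0.0271) was -0.0138 against the same compartment, -0.00950 over 3 bins, -0.0144 as a median over pairs and -0.0475 up to 1 Mb. Local OIS-shA1 minus Grow-shA1 (0.0456) was 0.0708 after division by the SD, 0.0135 over 3 bins and 0.0247 as a median, and turned to -0.000569 without chromosome 17. The local interaction (-0.0901) was -0.0258 against the same compartment, -0.0303 against bins with a start and -0.0472 up to 1 Mb. Members lower with B partners in OIS numbered 20 with unlisted pairs as 0, and members in B with a higher local score 3 without chromosome 17. The cause of these moves was not tested.
Of 17 named bins, 15 kept the sign of their distal and 10 that of their local change relative to the chromosome in OIS minus Grow under all 13 settings that apply to a single bin. The unknown depth limits what the differences between single bins can show.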
